A study of Mus musculus with 12 samples.

Results

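The EGR, NR4A and NFAT factors are transcription factors that T cells switch on, or move into the nucleus, when the T cell receptor (TCR) is engaged. Egr1, Egr2, Egr3, Nr4a1, Nr4a2, Nr4a3, Nfatc1, Nfatc2 and Nfatc3 were taken by symbol, together with Nab2, a corepressor that binds EGR proteins. All 10 genes were found by their Ensembl identifiers among the 50600 gene identifiers of each count table, and all 10 were among the 16052 genes that carried enough reads to be tested. The rule used their symbols and no threshold on their values. However, these genes, and the lists set beside them below, were chosen with earlier results of these data known. Their counts beside the shares of all genes are therefore a description and not a test. In ALK+ tumors the RNA of 7 of the 10 was lower than in control thymocytes, by 3.33-fold for Nfatc2 up to 38.6-fold for Nr4a1, whereas Nr4a2, Nfatc1 and Nfatc3 were not called. Of all genes tested, 12% were called lower in that comparison. In thymocytes that carried the same oncogene and were targeted for Dnmt1 deletion, 0 of the 10 were called different from control, where only 0.181% of all genes were called, so this count does not set the 10 apart from other genes.

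RNA-seq was performed on 12 mice, 3 in each of 4 groups, to ask how NPM-ALK driven lymphoma depends on the DNA methyltransferase DNMT1. NPM-ALK is a human fusion kinase found in anaplastic large cell lymphoma, expressed here in T cells from the Cd4 enhancer and promoter. Ctrl mice were DNMT1 fl/fl, in which loxP sites flank Dnmt1 but Cre is absent, and gave thymocytes at 20 to 25 weeks of age. KO mice were DNMT1 fl/fl CD4-CRE, in which Cre under Cd4 control deletes Dnmt1 in T cells, and gave thymocytes at 20 to 21 weeks. ALK mice were labelled NPM-ALK+, with no Dnmt1 allele named, and gave T cell lymphoma cells at 22 to 31 weeks. ALKKO mice were NPM-ALK+ and DNMT1 fl/fl CD4-CRE, and gave thymocytes at 19 to 25 weeks. All mice were of mixed C57Bl/6xSV/129 background, no group was treated with an agent, and all were male except the second KO mouse (KO2). Because every ALK library is tumor tissue and every other library is thymus, transformation and genotype cannot be told apart in comparisons with ALK. In bulk tissue, fewer cells of a type and less RNA per cell cannot be told apart either.

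Engagement of the TCR opens a calcium branch and a RAS branch. Calcium activates the phosphatase calcineurin, which removes phosphates from NFAT proteins so that they enter the nucleus. RAS and ERK kinases, together with serum response factor (SRF), switch on EGR genes within minutes, and NR4A genes respond to both branches. In the thymus these factors are known as a readout of TCR signal strength, since EGR proteins act in positive selection and NR4A proteins, orphan nuclear receptors, in negative selection. NFAT genes are transcribed at rest, and their proteins are controlled mainly by location.

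Sequence just upstream of the start was available from RefSeq (build GRCm38.p6) for 7 of the 10 genes. The stretches of Nr4a1, Nr4a2, Nr4a3 and Egr2 are shown because these genes belong to the families whose RNA differed most and because they hold the elements known to answer ERK and calcium signals. Each is printed 5′ to 3′ on the gene's own strand, in lower case. Capitals mark the TGACG element, the core of the cAMP response element bound by CREB, on either strand (CGTCA when read on the other strand), and in Egr2 also the CArG box bound by SRF. Coordinates are chr15:101266596-101266845 on the plus strand for Nr4a1, chr2:57124004-57124253 on the minus strand for Nr4a2, chr4:48045055-48045152 on the plus strand for Nr4a3 and chr10:67537619-67537868 on the plus strand for Egr2, the third of the start sites listed for it. None of these stretches holds an exon in GENCODE M21, those of Nr4a1 and Egr2 lie inside an intron of a longer annotated form of the gene, and that of Nr4a3 stops where the first annotated exon begins.
Nr4a1: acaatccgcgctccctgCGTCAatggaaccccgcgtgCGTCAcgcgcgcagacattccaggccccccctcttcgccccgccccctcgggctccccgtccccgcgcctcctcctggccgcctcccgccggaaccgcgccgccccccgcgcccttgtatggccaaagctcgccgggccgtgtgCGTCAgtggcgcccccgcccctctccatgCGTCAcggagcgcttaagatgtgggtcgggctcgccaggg
Nr4a2: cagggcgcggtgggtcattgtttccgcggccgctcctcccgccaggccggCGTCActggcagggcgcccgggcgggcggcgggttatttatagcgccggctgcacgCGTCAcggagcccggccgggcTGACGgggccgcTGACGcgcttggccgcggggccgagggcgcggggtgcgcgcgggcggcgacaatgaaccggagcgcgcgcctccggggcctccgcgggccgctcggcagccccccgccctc
Nr4a3: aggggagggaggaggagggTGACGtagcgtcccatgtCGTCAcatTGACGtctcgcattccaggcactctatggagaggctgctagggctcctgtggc
Egr2: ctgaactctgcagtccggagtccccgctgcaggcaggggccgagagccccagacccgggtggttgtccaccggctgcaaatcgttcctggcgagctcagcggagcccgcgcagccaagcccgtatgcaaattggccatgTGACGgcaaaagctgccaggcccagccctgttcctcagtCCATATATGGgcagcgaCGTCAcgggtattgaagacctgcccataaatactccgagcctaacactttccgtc

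In the full windows of 250 bases before the start, Nr4a1, Nr4a2 and Nr4a3 each held 4 TGACG elements. Among all 32851 windows of the same length, 17.8% held at least 1 and 45 windows (0.137%) held 4 or more. TGACG contains the pair CG, of which the windows of Nr4a1, Nr4a2 and Nr4a3 held 34, 44 and 18, against a median of 6. Windows matched for CG content were not compared. In Nr4a1 the TGACG elements began at positions -233, -213, -69 and -40, counted back from the start. The Egr2 window shown held a CArG box, found in 1.47% of windows, and 2 TGACG elements. For the first and second start sites listed for Egr2 the windows held 0 TGACG elements, and that of the second held a CArG box. Because the stretches were chosen for holding these elements, the shares do not measure how often the set holds them. An EGR site, GCGNGGGCG on either strand, was found in the windows of Nr4a1 and Nr4a2 and in 4.7% of all windows. The NFAT core GGAAA occurred in 55.6% of all windows, the AP-1 site TGANTCA in 6.75% and the NR4A site AAAGGTCA in 1.34%. No window of the genes with sequence held the AP-1 or the NR4A site, and the NFAT core was found for Egr2, Nr4a2, Nfatc2 and Nfatc3. The elements did not separate the genes by their RNA, since Nr4a2 was not called in any comparison although it carried as many TGACG elements as Nr4a1 and Nr4a3. Nab2 and Nfatc2, both called lower in ALK, held 0 TGACG elements and 0 CArG boxes, and Nfatc3 held 1 TGACG element in 1 of its windows. These matches are letters in a window and not measured binding.

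The depth on genes was 12473857 to 18864327 counts (median 15262212), so that 3 reads, the floor used here, equal 0.159 to 0.241 CPM (counts scaled to a common library total). CPM values were normalised by edgeR's TMM factors. A gene was called when the adjusted p of edgeR's quasi-likelihood test was under 0.05 and the absolute log2 fold change above 1. Dnmt1 had 400.0 to 487 CPM in Ctrl, 206 to 244 in KO, 379 to 788 in ALK and 205 to 244 in ALKKO. Alk was at or below 0.431 CPM in every Ctrl and KO library and at 34.9 to 55.0 CPM in every ALK and ALKKO library, and was called in both against Ctrl. All KO and ALKKO values of Dnmt1 lay below all Ctrl values, but RNA of the gene remained and the fall was not called (log2 fold change -0.95 in KO, adjusted p = 0.787 by edgeR, and -0.99 in ALKKO, adjusted p = 0.259). KO2 stood apart from the other thymus libraries. Its thymocyte markers summed to 6258 CPM against 13110 to 18390 in the other 8 thymus libraries, its B cell markers to 5876 CPM against 954 to 2715 and its myeloid markers to 2546 CPM against 544 to 826. Values without KO2 are therefore given beside the comparisons of KO, of all thymus libraries and of the interaction.

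The EGR genes and Nab2 were lower in ALK tumors than in Ctrl thymocytes. Egr1, the founding immediate-early zinc finger factor of the family (ENSMUSG00000038418.7, chromosome 18, 34859823 to 34864984 in GRCm38), had 170.2, 156 and 119 CPM in Ctrl, and 78.4, 8.12 and 15.0 CPM in ALK. The first tumor retained much more Egr1 RNA than the others, and all 3 tumors lay below all 3 Ctrl values. The log2 fold change was -2.13 (SE 0.672, adjusted p = 0.0367 by edgeR with Benjamini-Hochberg adjustment), a 4.38-fold lower level. This call was weak. It was lost in 11 of the 20 alternatives tried, among them the omission of any Ctrl mouse, of any ALKKO mouse, or of either the second or the third tumor (adjusted p = 0.0508 to 0.0920 by edgeR), whereas without the first tumor the log2 fold change was -3.70 (adjusted p = 2.68e-04).

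Egr2, which acts with Egr1 in positive selection and restrains peripheral T cells (ENSMUSG00000037868.15, chromosome 10, 67535475 to 67542188), fell more evenly. It had 44.1, 33.3 and 33.1 CPM in Ctrl and 2.15, 2.27 and 5.55 CPM in ALK. All tumors were far below all 9 thymus libraries, the lowest of which had 21.1 CPM. The log2 fold change was -3.47 (SE 0.394, adjusted p = 4.51e-04 by edgeR), an 11.1-fold lower level. Egr3, a close relative induced with Egr2 (ENSMUSG00000033730.3, chromosome 14, 70077203 to 70082614), was scarce in all mice. It had 5.07, 4.13 and 4.53 CPM in Ctrl and 0.336, 0 and 0.547 CPM in ALK, the latter from 5, 0 and 7 reads. The second tumor had no Egr3 read and none of the tumors reached any thymus value (log2 fold change -3.90, SE 0.855, adjusted p = 0.00801 by edgeR).

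Nab2 (ENSMUSG00000025402.12, chromosome 10, 127660918 to 127668568), itself an EGR target that feeds back on EGR proteins, had 89.2, 91.9 and 94.9 CPM in Ctrl and 11.5, 8.12 and 16.1 CPM in ALK. The Ctrl mice were almost equal and the tumors sat well below them. The log2 fold change was -2.95 (SE 0.318, adjusted p = 3.92e-04 by edgeR). The ends of Nab2 overlap those of Stat6 and Nemp1 on the other strand, and the strand setting of the counting is not given in the sources used here, so its level is less certain than those of the EGR genes.

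A pair of NR4A genes showed the largest differences of the set, and the third showed none that passed the test. Nr4a1 (ENSMUSG00000023034.6, chromosome 15, 101254269 to 101274795) encodes Nur77, which takes part in the death of thymocytes that bind self antigen. It had 122, 96.6 and 115 CPM in Ctrl and 2.02, 1.75 and 4.85 CPM in ALK. The tumor values were close together and none came near a thymus value, of which the lowest was 65.8 CPM. The log2 fold change was -5.27 (SE 0.424, adjusted p = 6.89e-05 by edgeR), a 38.6-fold lower level.

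Nr4a3 (ENSMUSG00000028341.9, chromosome 4, 48045153 to 48086447), which encodes NOR1 and can stand in for Nur77, had 27.4, 22.7 and 30.7 CPM in Ctrl. In ALK it had 0.873, 0.175 and 1.02 CPM, from 13, 2 and 13 reads, so that the second tumor lay at the floor. The log2 fold change was -5.25 (SE 0.523, adjusted p = 2.86e-04 by edgeR), close to that of Nr4a1. Nr4a2 (ENSMUSG00000026826.13, chromosome 2, 57106830 to 57124003), which encodes NURR1, did not share this pattern. It had 6.24, 4.77 and 6.47 CPM in Ctrl and 0.336, 11 and 5.63 CPM in ALK. The tumors spread from below to above all thymus libraries, and the log2 fold change of -0.05 (95% interval -1.87 to 1.77, adjusted p = 0.971 by edgeR) was without a stable sign. Without the first tumor it was 0.50 and without the second -0.997.

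**Figure D1:**
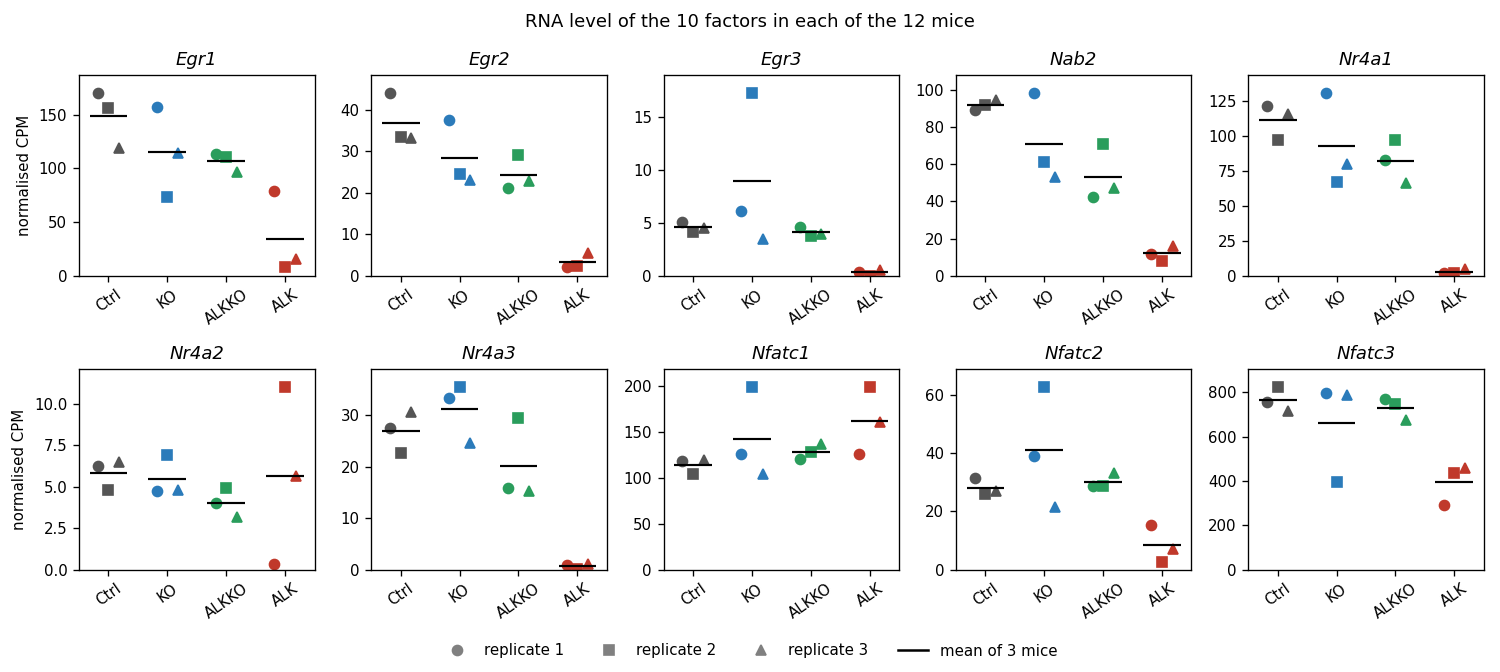
Normalised CPM (vertical axes, each from 0) of the 10 genes in the 3 mice of each group (horizontal axes; symbols give the replicate, black lines the mean of 3 mice). Nr4a1 lay at 1.75 to 4.85 CPM in ALK and at 65.8 CPM or more in all thymus libraries, while Nfatc1 overlapped between tumors and thymi and the square of KO stood apart for Egr3, Nfatc1, Nfatc2 and Nfatc3.

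The NFAT genes went separate ways. Nfatc1 (ENSMUSG00000033016.15, chromosome 18, 80606205 to 80713071) encodes NFATc1, whose short form is itself induced by NFAT. It had 118, 104 and 119 CPM in Ctrl and 125, 198.5 and 160.5 CPM in ALK. All tumors were slightly above all Ctrl mice, but the log2 fold change of 0.51 (SE 0.232, 95% interval -0.03 to 1.04, adjusted p = 0.122 by edgeR) was not called. Gene counts do not separate its short and long forms.

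Nfatc2 (ENSMUSG00000027544.16, chromosome 2, 168476410 to 168601657) encodes NFATc2, a main NFAT protein of resting peripheral T cells. It had 31.4, 25.8 and 26.9 CPM in Ctrl and 15.4, 2.62 and 7.12 CPM in ALK. All tumors were lower, the first the least so (log2 fold change -1.74, SE 0.538, adjusted p = 0.0344 by edgeR). This call too was weak, being lost in 8 of 20 alternatives, among them without any Ctrl mouse, the second or the third tumor, or the third ALKKO mouse (adjusted p = 0.0504 to 0.0907 by edgeR). Without the first tumor the log2 fold change was -2.54.

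Nfatc3 (ENSMUSG00000031902.10, chromosome 8, 106058840 to 106130537), which encodes the NFAT protein most typical of double-positive thymocytes, had 758, 824 and 714 CPM in Ctrl and 293, 435 and 458 CPM in ALK. All tumors were below all Ctrl mice, with an adjusted p of 0.0213 by edgeR. It was nevertheless not called, because its log2 fold change of -0.95 (SE 0.262) stayed under the threshold of size, which it crossed in 7 of 20 alternatives (lowest value -1.07). The last bases of Nfatc3 overlap Esrp2 on the other strand.

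Across the 10 genes, 7 were called in ALK against Ctrl, all lower. Of all genes tested, 12% were called lower and 20.4% were called in either direction. The median log2 fold change of the 10 was -2.54, against 0.05 over all genes. In the alternatives 5 to 8 of the 10 were called, and Egr2, Nab2, Nr4a1, Nr4a3 and Egr3 were called in each alternative that gave them a value. The values of 8 genes lay lower in all ALK than in all Ctrl mice, which held for 25.1% of all genes tested. With 3 mice against 3 an exact permutation test cannot give a p below 0.1. Against all 9 thymus libraries, 6 of the genes (Egr2, Egr3, Nab2, Nr4a1, Nr4a3 and Nfatc2) were lower in every tumor, as were 15.8% of all genes. For these the two-sided exact permutation test on log2(CPM + 1) gave p = 0.00909, the smallest it can give (0.0152 adjusted over the 10 genes). The same exact test gave p = 0.0182 for Egr1, 0.0273 for Nfatc3, 0.155 for Nfatc1 and 0.473 for Nr4a2. Without KO2, an alternative chosen after seeing the data, Egr1 and Nfatc3 also lay lower in every tumor than in the 8 remaining thymus libraries. The exact permutation p was 0.0121 for each of these 8 genes, the smallest possible. The exact test then gave p = 0.0485 for Nfatc1 (0.0539 adjusted over the 10 genes), with a higher mean in ALK and overlapping values, and 0.521 for Nr4a2. The share of all genes was not computed for these 8 libraries, so the larger count does not set the 10 genes apart.

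ALKKO thymocytes, which carried NPM-ALK and the Dnmt1 deletion alleles, differed from ALK tumors in the opposite sense. This comparison shares the ALK mice with the one above, so they are not independent. Nr4a1 had 82.7, 97.1 and 65.8 CPM in ALKKO and Nr4a3 had 15.8, 29.4 and 15.3 CPM. Both were far above every tumor, with log2 fold changes against ALK of 4.83 (SE 0.416, adjusted p = 1.04e-04 by edgeR) for Nr4a1 and 4.83 (SE 0.516, adjusted p = 3.75e-04) for Nr4a3. Egr2 had 21.1, 29.0 and 22.7 CPM and Egr3 had 4.54, 3.71 and 3.96 CPM in ALKKO. They were higher than in ALK by 2.87 (SE 0.385, adjusted p = 0.00102 by edgeR) and 3.73 (SE 0.851, adjusted p = 0.0100) on the log2 scale.

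Nab2, with 42.2, 71.0 and 47.1 CPM in ALKKO, was also called higher than in ALK (log2 fold change 2.16, SE 0.310, adjusted p = 0.00132 by edgeR). Nfatc2 had 28.8, 28.5 and 33.2 CPM (log2 fold change 1.84, SE 0.540, adjusted p = 0.0289 by edgeR). Its call was lost in 6 of 20 alternatives, namely without the third tumor or any 1 ALKKO mouse, with age as a covariate, and when only the groups compared were fitted (adjusted p = 0.0597 to 0.0811 by edgeR). Egr1 was uniform in ALKKO, with 113, 111 and 96.8 CPM, and lay above all tumors, but its log2 fold change of 1.65 (SE 0.662) missed the threshold (adjusted p = 0.0856 by edgeR). Without the first tumor it was 3.22 (adjusted p = 5.13e-04 by edgeR). Nfatc3 (0.89, SE 0.261), Nfatc1 (-0.33, SE 0.232) and Nr4a2 (-0.48, SE 0.795) were not called. In all, 6 of the 10 were called higher in ALKKO than in ALK, as were 12.6% of all genes.

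**Figure D2:**
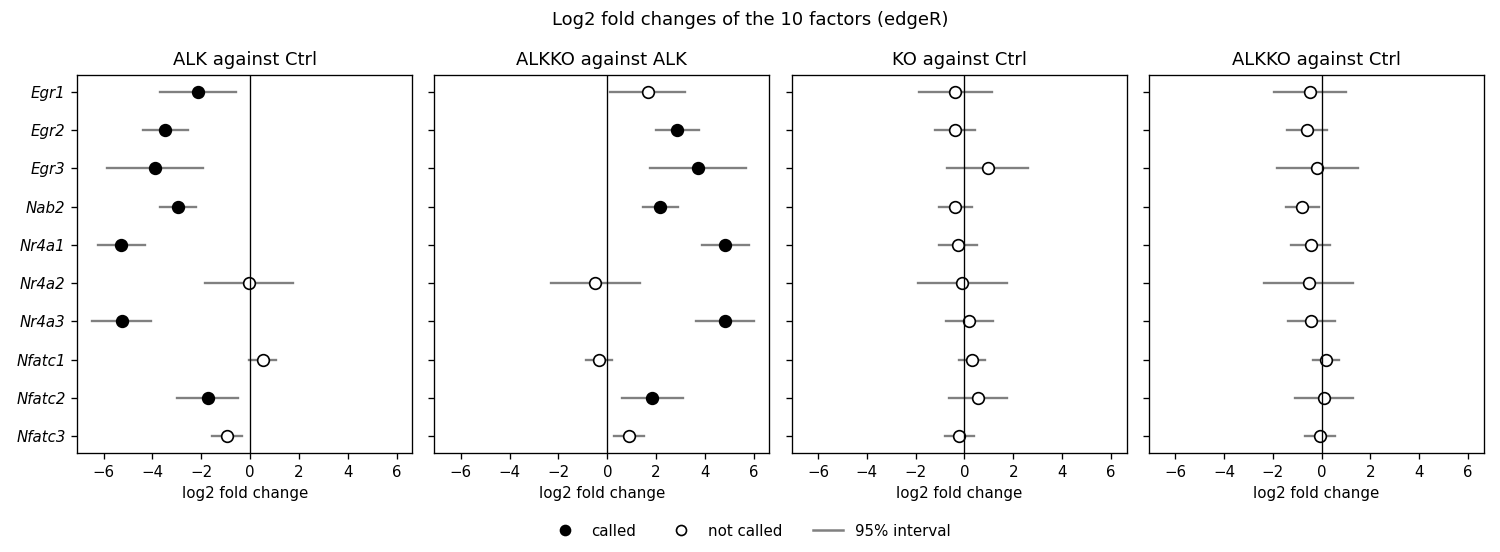
Log2 fold change of each gene (points; filled where called) with its 95% interval (grey lines) in 4 comparisons, from edgeR. Nr4a1 and Nr4a3 lay near -5.27 and -5.25 in ALK against Ctrl and at 4.83 in ALKKO against ALK, while no gene was called in KO or ALKKO against Ctrl.

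The 4 groups form a design of NPM-ALK with and without Dnmt1 deletion, so the difference between the NPM-ALK effects can be tested as an interaction: ALKKO against KO, minus ALK against Ctrl. Positive values mean that RNA was higher in the ALKKO mice than the sum of the single effects. Called higher were 4 genes, namely Nr4a1 (5.10, SE 0.529, adjusted p = 8.26e-04 by edgeR), Nr4a3 (4.63, SE 0.648, adjusted p = 0.00400), Egr2 (3.24, SE 0.517, adjusted p = 0.00657) and Nab2 (2.54, SE 0.424, adjusted p = 0.00770). Of all genes, 5.62% were called higher in this contrast. Without KO2 these values were 4.94, 4.76, 3.17 and 2.47, in the same order, and all 4 stayed called (adjusted p = 0.00108 to 0.0115 by edgeR). The value for Egr3 was 2.77 (SE 1.09, adjusted p = 0.130 by edgeR), and without KO2 it was 3.69 and called (adjusted p = 0.0434 by edgeR). Without the first tumor Egr1 (3.60, adjusted p = 0.00171 by edgeR) and Nfatc2 (2.10, adjusted p = 0.0488) were called as well.

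None of the 10 genes was called in KO against Ctrl by edgeR or by DESeq2's Wald test. In edgeR 0 had an unadjusted p under 0.05, beside 886 of the 16052 genes tested. Called in this contrast were 0.0187% of all genes. Log2 fold changes ranged from -0.37 for Egr2 to 0.96 for Egr3. The KO and Ctrl values overlapped for all 10. Only 6.24% of all genes lay lower in all KO than in all Ctrl mice, so this does not set the 10 apart from other genes. The intervals were wide, reaching from -0.70 to 2.62 for Egr3, from -1.06 to 0.53 for Nr4a1 and from -1.85 to 1.12 for Egr1.

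KO2 set much of this spread. Egr3 had 6.10, 17.2 and 3.44 CPM in KO, Nfatc2 had 39.1, 62.6 and 21.6 CPM, and Nfatc1 had 126, 198 and 104 CPM. KO2 was the highest thymus library for each of these genes. For Nfatc3 (795, 394 and 789 CPM) and Egr1 (158, 73.5 and 114 CPM) it was the lowest. Without KO2 the log2 fold changes in KO against Ctrl were 0.06 for Egr3, 0.12 for Nfatc2, 0.02 for Nfatc1, 0.05 for Nfatc3 and -0.12 for Egr1. For the other genes they were -0.28 for Egr2, -0.28 for Nab2, -0.08 for Nr4a1, -0.29 for Nr4a2 and 0.10 for Nr4a3, and 0 of the 10 were called. The B cell and myeloid markers were highest, and the thymocyte markers lowest, in the same library (sums above), and their part in these values was not tested.

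**Figure D3:**
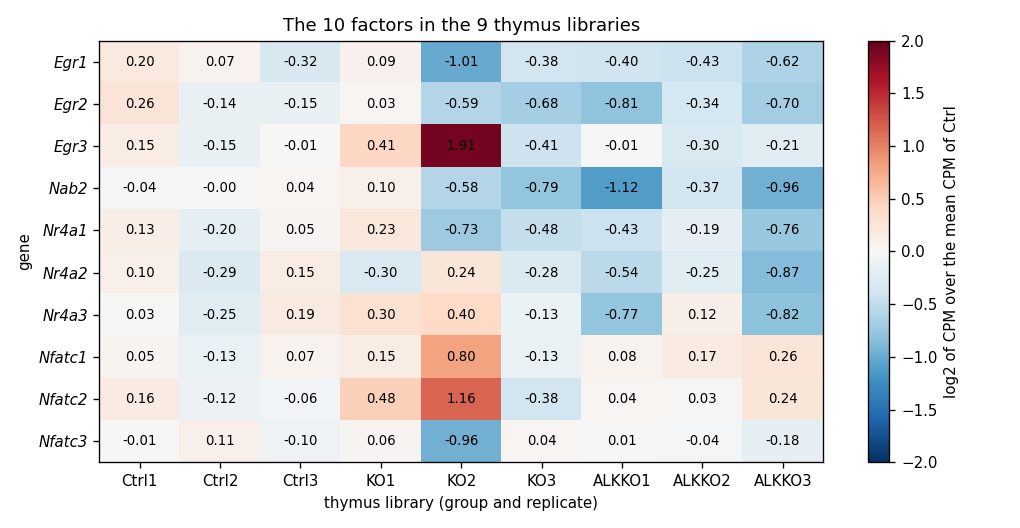
Log2 of the CPM of each gene (rows) in each of the 9 thymus libraries (columns) over the mean CPM of the 3 Ctrl libraries. KO2 is 1.91 above the Ctrl mean for Egr3 and 1.16 above it for Nfatc2, and -1.01 for Egr1 and -0.96 for Nfatc3.

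In ALKKO against Ctrl no gene was called by edgeR (adjusted p = 0.9998 for all 10) or by DESeq2, beside 0.181% of all genes in edgeR. With 3 mice per group, the absence of a call does not show equal levels, and 8 of the 10 log2 fold changes were below 0. An unadjusted p under 0.05 in edgeR was found for 1 of the 10 and for 510 of the 16052 genes tested. The 1 was Nab2 (log2 fold change -0.78, SE 0.295, 95% interval -1.46 to -0.10). All 3 ALKKO values were below all Ctrl values for Egr1, Egr2 and Nab2, as for 7.56% of all genes, and above them for Nfatc1. The values of the other 6 genes overlapped. The median log2 fold change of the 10 was -0.43, against 0.01 over all genes. The interval for Nr4a1 ran from -1.24 to 0.35 and that for Nr4a3 from -1.39 to 0.55, so a fall of the size seen in the tumors lay outside both. KO and ALKKO share the Ctrl mice in these comparisons. Compared directly, none of the 10 was called between ALKKO and KO by edgeR or by DESeq2, beside 0.00623% of all genes in edgeR. In edgeR 0 had an unadjusted p under 0.05, beside 432 of the 16052 genes tested. Without KO2, again 0 of the 10 were called between ALKKO and KO, with log2 fold changes from -0.52 for Nr4a3 to 0.16 for Nfatc1.

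Levels can be set side by side only per length, as normalised CPM per kb of exons. In Ctrl the order was led by Nfatc3, at 65.3 ± 4.74 CPM per kb (SD, n = 3). Egr1 (33.1 ± 5.86), Nr4a1 (31.7 ± 3.69) and Nab2 (31.3 ± 0.976) followed and did not differ beyond their spread. Next came Nfatc1 (15.2 ± 1.12), Egr2 (10.8 ± 1.84), Nr4a3 (4.50 ± 0.668) and Nfatc2 (2.65 ± 0.281), and last Nr4a2 (1.44 ± 0.227) and Egr3 (1.04 ± 0.108). Within each family 1 gene thus held most of the RNA in Ctrl thymocytes, namely Egr1, Nr4a1 and Nfatc3.

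In ALK the order was another. Nfatc3 (33.7 ± 7.63 CPM per kb) and Nfatc1 (21.6 ± 4.91) led. Egr1 (7.55 ± 8.64) and Nab2 (4.05 ± 1.36) followed and did not differ beyond their spread. The mean of Egr1 rested on the first tumor, with 17.5, 1.81 and 3.35 CPM per kb in the 3 tumors. Without the first tumor, chosen as an alternative after seeing the data, it was 2.58, below Nab2 (4.12). Nr4a2 (1.39 ± 1.31), Egr2 (0.978 ± 0.568), Nr4a1 (0.818 ± 0.490) and Nfatc2 (0.792 ± 0.612) did not differ beyond their spread, and Nr4a3 (0.115 ± 0.0753) and Egr3 (0.0668 ± 0.0627) were lowest. Nr4a2, the scarcest NR4A gene in Ctrl, was thus the NR4A gene with the highest mean in ALK, although the first tumor had more Nr4a1 (0.574) than Nr4a2 (0.0828). Relative to the mean, the spread between mice was 3.12% to 17.7% in Ctrl, 6.47% to 39.7% in ALKKO, 18.5% to 82.0% in KO and 22.6% to 114.5% in ALK. Over the 2 KO mice other than KO2 it was 0.521% to 42.3%.

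**Figure D4:**
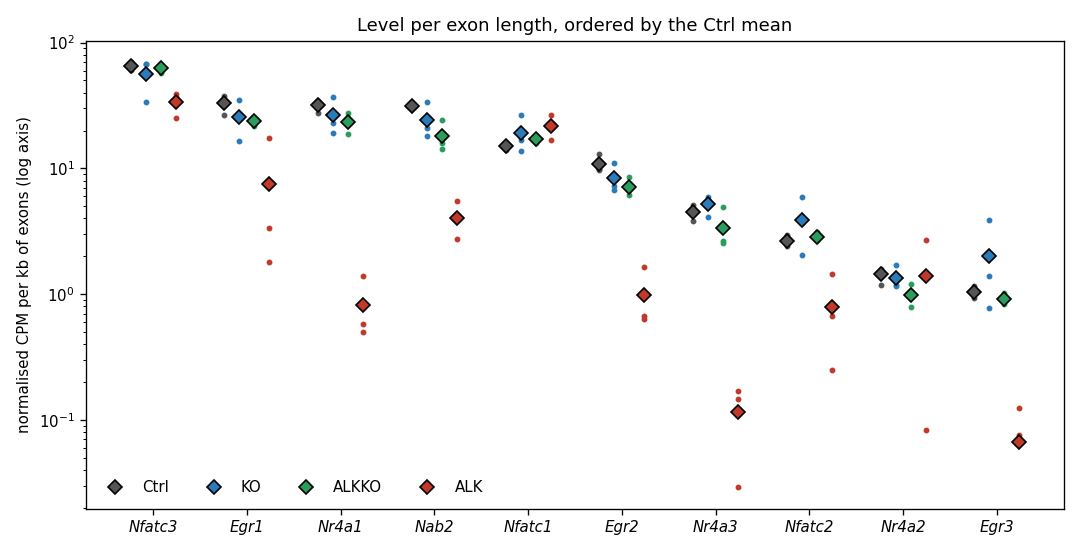
Normalised CPM per kb of exons (vertical log axis) of the 10 genes in order of their Ctrl mean; diamonds are group means of 3 mice and dots single mice (the tumor with 0 for Egr3 cannot be drawn). Nfatc3 and Nfatc1 stayed above 10 in all groups, whereas Nr4a1 fell from 31.7 in Ctrl to 0.818 in ALK.

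Among the 9 thymus libraries, the genes were also described by how alike their levels ran, as Pearson's r of log2(CPM + 1) with no test, since the points share groups and depth. Nr4a1 ran with Egr2 (r = 0.872 over 9 libraries, 0.889 over the 8 without KO2), Nab2 (0.827 and 0.879) and Egr1 (0.829 and 0.781). Ranked over all genes compared, these stood at 28, 77 and 72, so many other genes ran closer to Nr4a1. Its r without KO2 was 0.729 with Egr3, 0.845 with Nr4a3 and 0.789 with Nr4a2, and with KO2 it was -0.251, 0.460 and 0.347. Nfatc1 ran with Nfatc2 (0.933 and 0.748, rank 243) and against Nfatc3 (-0.943 and -0.725). Outside the set, and among 14572 genes compared, the most alike to Egr1 were Zcchc12 (0.979), Msantd2 (0.974) and Cdkn1b (0.971), to Nr4a1 Syt1 (0.947), Plekhh1 (0.933) and Borcs8 (0.923), and to Nfatc1 Tyrobp (0.981), Mdn1 (0.981) and Gm6545 (0.980). Without KO2 these were 0.905 to 0.963.

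Genes upstream of the factors were set beside all genes tested, of which 20.4% were called in ALK against Ctrl, 8.41% higher and 12% lower. Of 15 genes of the calcium and calcineurin branch, 1 was called, lower (median log2 fold change -0.37). This was Orai2, a subunit of the store-operated calcium channel, with 95.8 ± 12.6 CPM in Ctrl and 25.6 ± 19.7 CPM in ALK (log2 fold change -1.90, adjusted p = 0.0111 by edgeR). Stim1 (-0.89, adjusted p = 0.00249 by edgeR) and Itpr2 (0.997, adjusted p = 0.0189) passed the adjusted p and missed the threshold of size. Of 11 NFAT export kinases and calcineurin inhibitors, 0 were called (median -0.15), and none of the other NFAT genes Nfatc4, Nfat5 and Nfatc2ip passed the test. Of 3 further genes of the EGR and NAB family, Egr4 had too few reads to be tested, and neither Nab1 nor Wt1 was called.

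In the RAS and ERK branch with the SRF partners, 1 of 18 genes was called higher and 1 lower (median 0.03). Rasgrp1, the exchange factor that couples diacylglycerol to RAS below the TCR, fell from 573 ± 31.0 CPM in Ctrl to 10.3, 10.8 and 42.3 CPM in ALK (log2 fold change -4.76, SE 0.574, adjusted p = 5.59e-04 by edgeR). It had 513 ± 40.5 CPM in ALKKO. Mapk3, which encodes ERK1, rose from 74.6 ± 3.26 to 201 ± 86.6 CPM (log2 fold change 1.43, adjusted p = 0.00267 by edgeR). Elk4 (-0.86), Elk1 (0.75) and Sos2 (0.58) passed the adjusted p (0.00589, 0.00906 and 0.0397 by edgeR) but not the threshold of size. Stim1, Itpr2, Elk4, Elk1 and Sos2 were named after their values were seen. Of 13 genes that ERK induces and that feed back on it, 5 were called higher and 1 lower (median 0.67), beside the 8.41% and 12% of all genes, a difference that was not tested. The lower one was Dusp2. Higher were Etv4 (2.96, adjusted p = 0.0138 by edgeR) and Etv5 (2.15, adjusted p = 0.00455), ETS factors, and Spry1 (2.13, adjusted p = 0.00315), a RAS-ERK inhibitor, with Spred1 and Phlda1. Dusp2, Spred1 and Phlda1 are outside the rule for naming genes and were chosen after their values were seen.

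Of 22 known TCR-induced target genes, 20 were tested, of which 10 were called lower and 2 higher in ALK (median -1.30). Of all genes 12% were called lower and 8.41% higher. Cd5, an inhibitory receptor whose level follows TCR signal strength, had 275, 239.6 and 231 CPM in Ctrl and 2.22, 0.786 and 2.19 CPM in ALK (log2 fold change -7.14, SE 0.407, adjusted p = 6.82e-06 by edgeR). Cd69, the early activation antigen, fell from 74.4 ± 11.7 to 2.96 ± 1.80 CPM (log2 fold change -4.65, adjusted p = 8.26e-05 by edgeR). Fasl, a death ligand and known EGR target, was at 1.57 ± 0.499 CPM in Ctrl and at or under 3 reads in every tumor (adjusted p = 0.00473 by edgeR). In ALKKO against ALK, 9 of the 20 were called higher and 2 lower, beside 12.6% of all genes called higher. In ALKKO or KO against Ctrl 0 were called. Only 0.181% and 0.0187% of all genes were called there, so this count does not set the targets apart.

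Immediate-early and heat shock genes that tissue handling can induce were lower in ALK too. Of 20, 8 were called lower and 1 higher (median -1.61), beside 12% and 8.41% of all genes. The summed level of the 20 was 741 to 1113 CPM in ALK and 1571 to 2416 CPM in the thymus libraries, without overlap. Hspa1b (-4.80) and Hspa1a (-4.79), heat shock proteins, and the factor Klf4 (-2.55) were among those that fell (adjusted p = 0.00542, 0.00600 and 0.0260 by edgeR). Fos, which is induced together with Egr1, had 9.46, 5.09 and 6.09 CPM in Ctrl and 5.11, 1.66 and 6.49 CPM in ALK, with overlap. Jund of the same list had 154, 108 and 130 CPM in Ctrl and 34.9, 29.25 and 46.8 CPM in ALK, without overlap. Fos and Jund were named after their values were seen, and neither stands for the list. The part of handling in the values of the EGR and NR4A genes was not tested.

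**Figure D5:**
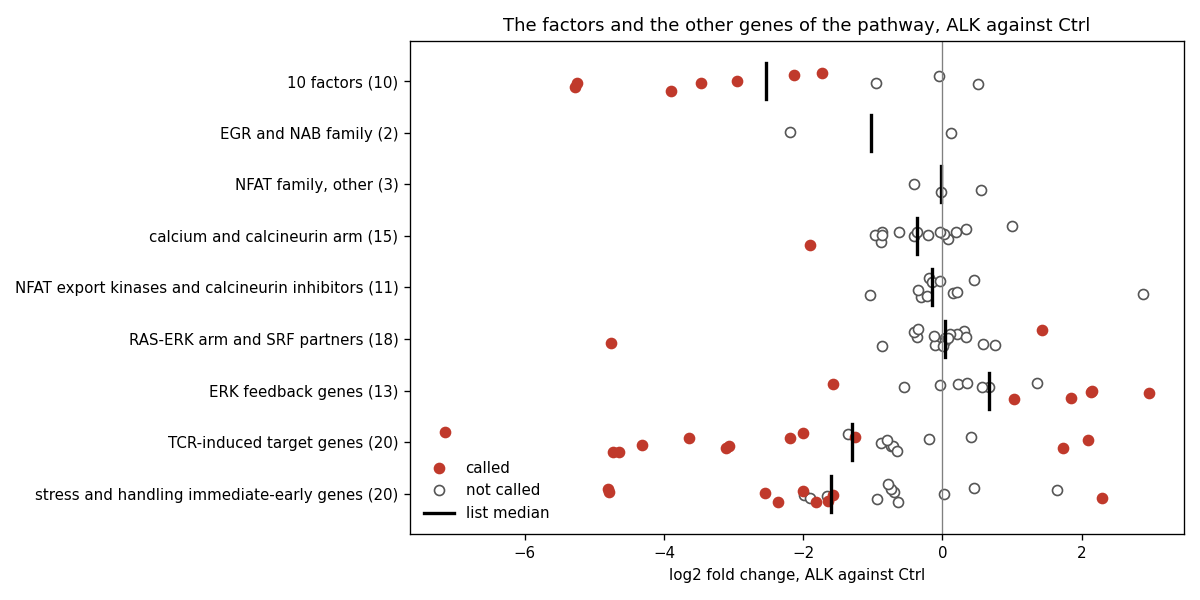
Log2 fold changes in ALK against Ctrl (horizontal axis) of the 10 factors and of the tested genes of 8 lists (rows, number tested in parentheses); red points were called, black bars are list medians. The median was -2.54 for the factors, -1.30 for the TCR-induced targets, -1.61 for the handling genes, 0.67 for the ERK feedback genes and 0.03 for the RAS-ERK branch.

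Some cell type markers differed in the tumors as well, beside the 12% of all genes called lower and 8.41% called higher in ALK. Of 17 thymocyte markers tested 8 were called lower (median -1.85), among them Cd8b1 (-6.31), Cd4 (-4.50) and Cd8a (-3.65). Others did not fall, such as Dntt (-0.03, adjusted p = 0.967 by edgeR) and Ptcra (2.07, adjusted p = 0.0595). Dntt and Ptcra were named after their values were seen. The thymocyte markers summed to 5813 to 8039 CPM in ALK and 14560 to 18390 CPM in Ctrl. B cell markers summed to 31.3 to 138 CPM in ALK against 1041 to 1365 CPM in Ctrl, with 2 of 8 called lower (median -3.84), Ighm and Cd79b. Epithelial and stromal markers summed to 1295 to 2475 CPM in ALK and 904 to 1010 CPM in Ctrl. Of 11, the thymic epithelial genes Foxn1, Krt8 and Psmb11 were called lower and 3 collagen genes higher. Of 9 myeloid markers 1 was called lower, Mpo, and of 5 erythroid markers 0 were called. Rag1 and Itgam were listed at 0 in all 12 libraries, although Rag2 had 349, 422 and 335 CPM in Ctrl. These zeros are not read as absence of RNA, and whether they came from the counting was not tested. The part of cell composition in the lower EGR and NR4A levels was not tested.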

How the data were processed

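RNA-seq was performed on thymocytes or lymphoma cells of 12 mice (single-end 50-nt reads, stranded poly(A) libraries). The authors trimmed reads with Trim Galore, aligned them to mm10 with STAR and deposited raw read counts per gene from HTSeq. The annotation release and the strand setting of the counting are not given in the sources used here. Rows for unassigned reads (43.8% to 55.3% of each table) were left out. Names and positions came from GENCODE M21, which matched 50376 of 50600 identifiers, and promoter windows from RefSeq.

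Genes kept by filterByExpr (16052) were fitted with edgeR 4.0.16 (R 4.3.3, limma 3.58.1): TMM factors (0.913 to 1.06), 1 term per group over all 12 libraries, robust quasi-likelihood test, Benjamini-Hochberg adjustment over all genes tested. Figures and exact permutation tests on log2(CPM + 1) used Python 3.11.15, scipy 1.17.1 and matplotlib 3.10.9. The fit was tested on simulated data.

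Replicates are labelled as separate mice, but nothing says that they came from separate litters. Replicate numbers were not used to pair the mice in the main fit. Alternatives were DESeq2 1.42.0, other scalings and filters, a replicate block, labelled age, only the groups compared, and leaving out each mouse. All 10 genes are named. From each further list, up to 3 called genes are named, others being marked as chosen after their values were seen. The genes and lists were chosen with earlier results of these data known.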

Additional observations from a re-analysis of the deposited data

Results flagged for a closer look

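The difference between the NPM-ALK effects with and without Dnmt1 deletion passed the test of that difference for 4 of the 10 genes (edgeR's interaction contrast with Benjamini-Hochberg adjustment). All 4 were called higher, as were 5.62% of all genes. The value was 5.10 for Nr4a1 (adjusted p = 8.26e-04 by edgeR), 4.63 for Nr4a3 (adjusted p = 0.00400), 3.24 for Egr2 (adjusted p = 0.00657) and 2.54 for Nab2 (adjusted p = 0.00770), on the log2 scale. In each case the RNA was lower in all 3 ALK than in all 3 Ctrl mice, which held for 25.1% of all genes tested. The ALKKO and KO values overlapped, and the share of all genes was not computed for that overlap. ALK libraries are tumors and ALKKO libraries thymocytes, so transformation and Dnmt1 deletion cannot be told apart in this difference.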

How the results depend on the processing

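The number of the 10 genes called stayed within 1.5 times the reported one. It ranged over 5 to 8 in ALK against Ctrl, 4 to 7 in ALKKO against ALK and 3 to 6 in the interaction, and stayed at 0 in KO or ALKKO against Ctrl and in ALKKO against KO. Of 1172 values of single genes under the alternatives, 1117 kept their side of the threshold, 25 lost and 16 gained a call, and 14 changed sign, none of them a call. Nr4a2 in ALK against Ctrl was 0.0286 with age as a covariate. Leaving out each mouse, it ran from -0.997 to 0.495 in ALK against Ctrl, -0.29 to 0.0018 in KO against Ctrl, -1.03 to 0.47 in ALKKO against ALK and -0.93 to 0.57 in the interaction. Nfatc3 ran from -0.37 to 0.0541 in KO against Ctrl. In ALKKO against KO, Egr1 ran from -0.35 to 0.19, Egr2 from -0.38 to 0.0305, Nr4a1 from -0.36 to 0.16, Nfatc1 from -0.34 to 0.16 and Nfatc3 from -0.12 to 0.30. With a replicate block, Egr1 in ALKKO against KO was 0.0020 and in ALKKO against ALK it was called (2.10, adjusted p = 0.0345 by edgeR). Deviations of same-numbered mice from their group means had a median r of -0.029 (18 pairs, r from -0.143 to 0.445). The highest was between the first KO and the first ALKKO mouse, and unlike-numbered pairs ran from -0.462 to 0.261. Whether some same-numbered mice shared a litter or batch was not tested, and with 3 mice per group these values cannot decide it. DESeq2 also called Egr1 in ALKKO against ALK (1.69) and Egr3 (2.82) and Nfatc3 (1.13) in the interaction. Over all genes, calls ran from 1756 to 3969 in ALK against Ctrl (3281 as reported), 1531 to 3843 in ALKKO against ALK, 1 to 98 in ALKKO against Ctrl (29), 0 to 42 in KO against Ctrl (3), 0 to 24 in ALKKO against KO (1) and 569 to 2486 in the interaction; the cause was not tested. Library totals without TMM shifted the median of all genes by 0.138 in the interaction. Egr3, Nr4a2 and Nr4a3 have no value with at least 10 counts in every library.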

Other observations

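A few genes of the TCR and stress lists ran against the EGR and NR4A genes, and were picked here after their values were seen. Socs3, a feedback inhibitor of cytokine signalling, had 29.0 ± 3.20 CPM (SD, n = 3) in Ctrl, 142 ± 78.9 in ALK and 259 ± 39.1 in ALKKO. It was called higher in ALK than in Ctrl (log2 fold change 2.29, adjusted p = 0.0134 by edgeR), while its log2 fold change of 3.16 in ALKKO against Ctrl was not called (adjusted p = 0.0958). Myc, a transcription factor of cell growth that the TCR induces, rose from 74.3 ± 3.996 to 246 ± 29.8 CPM in ALK (adjusted p = 5.53e-04 by edgeR) and had 69.6 ± 21.4 CPM in ALKKO. Cblb, a ubiquitin ligase that dampens TCR signals, rose from 61.9 ± 4.29 to 263 ± 140.3 CPM in ALK (adjusted p = 0.00696 by edgeR).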
